A study of Mus musculus with 13 samples.

Results

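Fatty acid oxidation genes and targets of the nuclear receptor PPAR-alpha were examined in mouse liver as a group of 39 genes chosen by symbol. By the rule that formed the group, symbols not listed for the liver were dropped. That all 39 are among the 11779 genes listed for the liver was therefore fixed in advance. The Ensembl identifier listed with each of the 39 carries the same symbol in the annotation used here. The liver samples come from Balb/c mice collected on day 5 after injection of GalNAc-conjugated antisense oligonucleotides (ASOs), short modified DNA strands that trigger degradation of a matching RNA, with a sugar tag that hepatocytes take up. In the Liver LL35 ASO group, 3 mice were given a mix of 5 ASOs against LL35 (Falcor), a long non-coding RNA. In the Liver Luc ASO group, 3 mice were given an ASO against firefly luciferase. The number 5 is that of the labels and of the study's text, whereas the study's list of in vivo ASOs leaves out ASO 2. The labels give the LL35 dose as 150 mg/kg. They assign it to each ASO, whereas the study's methods describe doses as totals of the mix. Neither the age nor the sex of the mice is given, and both groups carry an ASO, with no untreated liver beside them. Whether these mice were fed or fasted at collection is not given either, as the study's methods name a fast only for its insulin tolerance test. The series also holds AML12 cells, an immortalized mouse hepatocyte line, collected on day 2 after transfection, with 4 samples of AML12 LL35 ASO and 3 of AML12 Luc ASO, which were not analysed here.

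The value used for each gene is the authors' mean normalized count over the compared liver libraries, which is termed the level here. It joins LL35 ASO and Luc ASO livers in a single number, so the levels describe these ASO-treated livers as a whole. They hold no value for a single mouse, no spread and no depth, so no difference between the groups was tested, and no order of neighbouring genes could be set against an error. The gene of LL35 is not among the genes analysed, so the knockdown was not checked here. In bulk tissue, fewer cells of a type and less RNA per cell cannot be told apart. A longer transcript yields more reads, and therefore levels of different genes are compared per kilobase of annotated exon (the per-kilobase level), with the per-coding-kilobase level beside it where the choice changes the order.

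In fatty acid oxidation, a fatty acid is taken up, bound in the cytosol, joined to coenzyme A and passed into mitochondria as a carnitine ester, where it is shortened in repeated rounds of dehydrogenation, hydration, a second dehydrogenation and thiolytic cleavage. Very long and branched chains begin this course in peroxisomes. In the fasted liver the acetyl-CoA formed feeds the synthesis of ketone bodies, and PPAR-alpha, which binds DNA together with RXR at direct repeats of a short hexamer, is known to drive many of these genes. Rodent liver is known for its strong PPAR-alpha response.

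The direct repeat is shown first, since it is the sequence by which PPAR-alpha targets are usually recognised. RefSeq promoter windows of GRCm38.p6, with 250 bases before and 50 bases after the start of transcription, were at hand for 34 of the 39 genes, with 39 windows in all since some genes have several starts. The strict repeat is the hexamer AGGTCA followed by 1 base and the same hexamer, searched on both strands. It was found for 0 of these 34 genes, for 4 of the 9335 listed genes with a window, and in 13 of all 32851 windows. The relaxed repeat, with AGGNCA in both places, includes the strict form. It was found for 1 of the 34 genes, Fabp1, and for 33 of the 9335 listed genes (0.354%), and in 0.381% of all windows. In Fabp1 it lies on the opposite strand and begins 67 bases before the start of transcription, within chr6:71199782-71199854 (GRCm38.p6, plus strand). In the stretch below, from the same strand as the gene, capitals mark the repeat.
Fabp1: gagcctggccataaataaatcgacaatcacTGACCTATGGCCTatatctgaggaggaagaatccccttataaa
The single hexamer AGGTCA was found for 10 of the 34 genes (29.4%), against 15.4% of the 9335 listed genes with a window. These were Acadm, Acadvl, Acot3, Acot4, Cd36, Cpt1a, Creb3l3, Echs1, Fabp1 and Plin2. The looser hexamer AGGNCA, which includes AGGTCA, was found for 28 of the 34 genes (82.4%), against 57.5% of listed genes. These 4 patterns are all that were searched, and they were chosen with member values in view. A match is only a string of letters in a short window, and it was not related to binding or to the levels.

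Most of these 39 genes were among the abundant transcripts of these livers. Per kilobase of exon, their median was 700.3, against 51.5 for the 11754 listed genes with an annotated length, 39 of 39 lay above that median, and 33 were in the highest 10% of listed genes. Without length, their median level was 3223 and that of all listed genes 235. The level that marks the highest 10% of listed genes was 1445, and 32 of the 39 genes (82.1%) were above it. The exceptions without length were Acot1, Acot2, Acot3, Vnn1, Cd36, Etfb and Pdk4. Per kilobase of exon they were Echs1, Acot1, Hadhb, Acot2, Cd36 and Pdk4. The 39 genes make up 0.331% of the listed genes and carried 1.37% of the summed level. The lowest level of a listed gene was 15.6, so the listed genes are a detected part of the genome, and how they were selected is not given in the sources used here. Members had to be listed, so unlisted genes could not lower these counts.

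**Figure D1:**
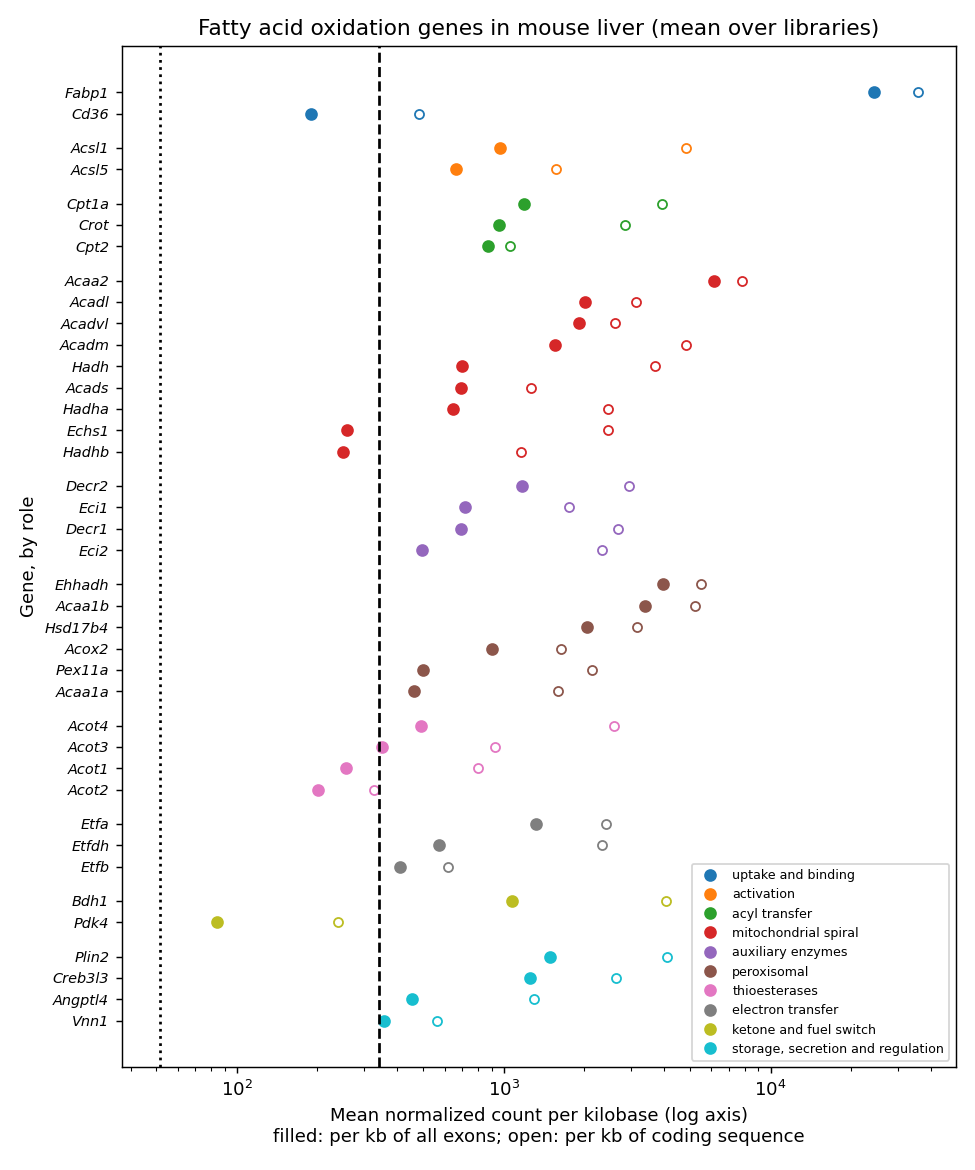
Each gene has a filled point at its mean normalized count per kilobase of all annotated exons and an open point at the count per kilobase of coding sequence, on a log axis, in colours for its role. The dotted line is the median of listed genes (51.5) and the dashed line marks the highest 10% (341.2), both per kilobase of exon: Fabp1 stands apart at 24462 and Pdk4 is lowest at 84.4, and points have no error bars because the level is a single mean over libraries.

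Fabp1 (ENSMUSG00000054422), the liver fatty acid binding protein that carries long-chain fatty acids through the cytosol, had the highest level of the group. Its level was 13528, rank 81 of the listed genes. It has the shortest exon length of the group, 553 bases, and its per-kilobase level of 24462 was 3.98 times that of the next gene, Acaa2, and rank 15 of the listed genes. By per-kilobase level Fabp1 and the next 4 genes, Acaa2, Ehhadh, Acaa1b and Hsd17b4, together held 60.5% of the sum over the 39 genes, whereas per coding kilobase the 5 highest genes, with Acsl1 in place of Hsd17b4, held 44.8%. The 3 genes nearest to Fabp1 in level were Ehhadh, Acsl1 and Acaa2. Cd36, the membrane protein that takes up fatty acids in muscle, fat and macrophages, had a level of 682.9 and a per-kilobase level of 190.2. Both proteins handle free fatty acids, and their per-kilobase levels lay at opposite ends of the group, Fabp1 first and Cd36 in position 38.

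Acsl1 and Acsl5 join long-chain fatty acids to coenzyme A. Their levels were 10132 and 3223. Acsl1 has exons of 10483 bases in all, the longest of the group, and its per-kilobase level of 966.6 was 1.46 times that of Acsl5. The ratio was 3.07 per coding kilobase, so Acsl1 was the more abundant of the pair on both scales, by an amount that depends on the annotated exons.

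Cpt1a forms the carnitine ester on the outer mitochondrial membrane and is regarded as the rate-limiting step of the pathway, Cpt2 reverses it on the inner membrane, and Crot acts on medium-chain products of peroxisomes. Cpt1a had a level of 9075 and Cpt2 a level of 2085. Crot had a level of 5223. Per kilobase of exon these 3 genes lay close to each other, at 1187 for Cpt1a, 957.4 for Crot and 872.1 for Cpt2. Per coding kilobase they lay further apart, and Cpt1a was 3.70 times Cpt2.

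The mitochondrial spiral is formed by 9 genes of the group, and they held 21.5% of the summed per-kilobase level. Fabp1 alone takes a large part of that sum, and without it their share was 34.1%. The first dehydrogenation is shared by acyl-CoA dehydrogenases of different chain length. Their per-kilobase levels were 2015 for Acadl (long chain), 1920 for Acadvl (very long chain), 1557 for Acadm (medium chain) and 691.2 for Acads (short chain). Acadm and Acads differed 2.25-fold, and Acadm was the higher on every length scale used. The place of Acadm below Acadl and Acadvl held only per kilobase of exon. Per coding kilobase Acadm was the highest of these dehydrogenases, at 4823, against 3132 for Acadl and 2620 for Acadvl. The order of Acadl and Acadvl depended on the scale. The ratio of Acadvl to Acadl was 0.953 per kilobase of exon and 0.837 per coding kilobase. It was 1.10 per kilobase of unshared windows, which are 50-base windows of protein-coding transcripts found in no other gene. The read length printed in the study's methods is shorter than such a window, so how windows relate to reads is not known. Neither gene shares a window, and this scale counts only protein-coding transcripts, whereas the exon length covers all annotated transcripts. Acadm was the highest of the dehydrogenases on this scale too, at 2881. Exons of Acadvl overlap those of Dvl2 on the opposite strand over 42.9% of their length, and whether the counting used strand is not stated.

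The later steps of the spiral spread more widely. Acaa2, the mitochondrial thiolase that cleaves off acetyl-CoA, had a level of 9309 and a per-kilobase level of 6140, the second of the group on this scale. Hadh, the dehydrogenase for medium and short chains, had a per-kilobase level of 700.3, which is the median of the group. Echs1, the short-chain enoyl-CoA hydratase, had a level of 2137. Its per-kilobase level was 257.9 (position 34 of 39), although per coding kilobase it stood at 2457 (position 20), since the annotation gives it 8286 bases of exon for 870 bases of coding sequence.

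Hadha and Hadhb encode both subunits of the trifunctional protein, which carries out the last 3 steps for long chains, and are neighbouring genes that lie head to head. The level was 5642 for Hadha and 1649 for Hadhb. Per kilobase of exon, Hadha was 2.59 times Hadhb, and per coding kilobase 2.13 times. Of the 2170 distinct windows of 50 bases in the protein-coding transcripts of Hadhb, 57.5% also occur word for word in another annotated gene, mostly Gm13910 with 56.6%. Hadha shares 0 of its 3968 windows. The counter that the authors named counts only reads that fit 1 place. Per kilobase of unshared windows, a scale that would be right only if no read from shared windows had been counted, the ratio was 0.796, the opposite order. The share of Hadhb reads that was lost was not tested.

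The auxiliary enzymes move the double bonds of unsaturated chains into a place where the spiral can go on. Their levels were 3099 for Decr2, 2749 for Eci2, 2686 for Decr1 and 1517 for Eci1. Decr1 and Eci1 act in mitochondria and Decr2 in peroxisomes. Per kilobase of exon they ranged from 496.3 for Eci2 to 1168 for Decr2. Decr2 was 1.69 times Decr1 on this scale and 1.10 times per coding kilobase. The order of the isomerases turned with the scale, Eci2 to Eci1 being 0.696 per kilobase of exon and 1.34 per coding kilobase. Eci2 shared 5.44% of its windows, most of them with its paralog Eci3.

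The electron-transferring flavoprotein passes electrons from all acyl-CoA dehydrogenases to the respiratory chain, with Etfa and Etfb as its subunits and Etfdh as the dehydrogenase that receives them. The level was 4305 for Etfdh, 2420 for Etfa and 474.2 for Etfb. With length, Etfa was above Etfdh, at 1319 against 573.6 per kilobase of exon and 2423 against 2329 per coding kilobase. Although Etfa and Etfb form 1 protein together, Etfa was 3.24 times Etfb per kilobase of exon and 3.91 times per coding kilobase. Etfb is the member whose exons are most covered by another gene on its own strand: 58.2% of their length is also annotated as Gm45233 or Mir7051, and 57.7% of its windows are shared. Per kilobase of unshared windows the ratio of Etfa to Etfb was 1.65. A read that falls in exons of several genes is not assigned to any of them by that counter, where the authors' annotation holds the same overlap, and how much of the low level of Etfb comes from this was not tested.

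**Figure D2:**
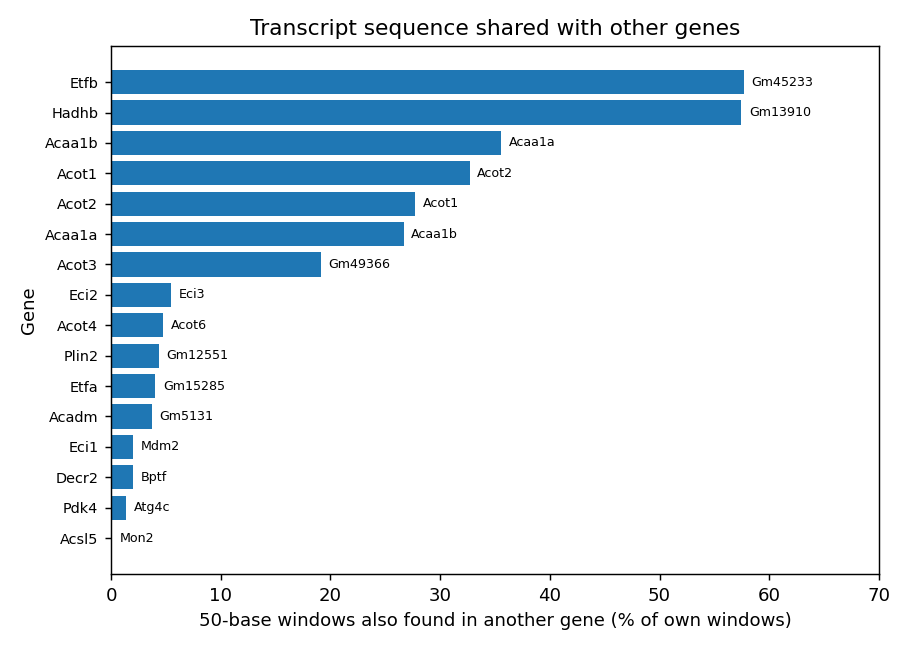
Bars give, for each of the 16 genes with any such window, the share of its own 50-base transcript windows that also occur word for word in a transcript of another annotated gene, and the name at the bar is the gene with the most of them. Etfb (57.7%) and Hadhb (57.5%) stand apart, followed by Acaa1b, Acot1, Acot2, Acaa1a and Acot3, while the other 9 genes are under 10%.

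Of the 5 genes highest per kilobase of exon, 3 are peroxisomal, namely Ehhadh, Acaa1b and Hsd17b4. Per coding kilobase, and per kilobase of unshared windows, 2 of the 5 highest are, without Hsd17b4. Ehhadh, the bifunctional enzyme that hydrates and dehydrogenates in peroxisomes and a textbook PPAR-alpha target, had a level of 11768 and a per-kilobase level of 3948, the third of the group on this scale. It was 6.11 times Hadha, which holds the matching activities in mitochondria, per kilobase of exon and 2.22 times per coding kilobase. Hsd17b4, the other bifunctional enzyme, had a level of 6961. Acox2, the oxidase for branched chains and bile acid intermediates, had a level of 3345, and Ehhadh was 4.37 times Acox2 per kilobase of exon. Pex11a, which takes part in the division of peroxisomes, had a level of 1585 and a per-kilobase level of 498.1. Per kilobase of exon, the median was 1474 over the 6 peroxisomal genes and 700.3 over the 9 genes of the spiral. This gap depends on the annotated exons, since the medians were 2652 and 2620 per coding kilobase and, in the opposite order, 1954 and 2003 per kilobase of unshared windows. The peroxisomal genes held 17.0% of the summed per-kilobase level of the group, and 27.0% without Fabp1.

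Apart from Fabp1 against Acaa2 and against Pdk4, the ratios between genes given here are from 21 pairs. These pairs were chosen after the levels were seen, as were the unshared-window scale and the window length. Acaa1a and Acaa1b are peroxisomal thiolases whose coding sequences of 1272 bases each are 96.5% identical, with 44 differing bases and an identical run of 327 bases. They are shown over the 90 coding bases with the most differences (bases 460 to 549, counted from the start codon), because bases that differ are what can assign a read to 1 of the pair. Capitals mark the 13 differing bases.
Acaa1a: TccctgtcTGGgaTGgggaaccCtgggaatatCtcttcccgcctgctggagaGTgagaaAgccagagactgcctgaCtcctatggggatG
Acaa1b: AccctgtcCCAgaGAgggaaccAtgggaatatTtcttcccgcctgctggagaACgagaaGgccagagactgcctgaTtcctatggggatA
The level was 6623 for Acaa1b and 2029 for Acaa1a. Acaa1b was the higher by 3.26 times per coding kilobase, 7.34 times per kilobase of exon and 4.95 times per kilobase of unshared windows. Thus Acaa1b was above Acaa1a on each of these scales, while 35.5% of the windows of Acaa1b and 26.7% of those of Acaa1a are common to both. Acaa2, by contrast, shares 0 windows with other genes and is 56.6% identical to Acaa1a.

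The thioesterases release free fatty acids from coenzyme A, Acot1 in the cytosol, Acot2 in mitochondria and Acot3 and Acot4 in peroxisomes. Acot2, Acot1 and Acot4 follow each other on the same strand as neighbouring protein-coding genes. Their levels were 3262 for Acot4, 1207 for Acot3, 1009 for Acot1 and 443.3 for Acot2. Their per-kilobase median of 304.2 was the lowest of the 10 roles, as were their medians on the other length scales, and they held 1.97% of the sum. Acot1 and Acot2 are 95.6% identical over 1236 aligned coding bases, whereas Acot1 and Acot4 are 75.5% identical. The aligned 90 bases with the most differences, 14, are shown for Acot1 (coding bases 797 to 886) and Acot2 (coding bases 920 to 1009), with the differing bases in capitals.
Acot1: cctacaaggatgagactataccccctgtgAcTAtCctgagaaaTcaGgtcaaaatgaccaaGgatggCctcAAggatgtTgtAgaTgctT
Acot2: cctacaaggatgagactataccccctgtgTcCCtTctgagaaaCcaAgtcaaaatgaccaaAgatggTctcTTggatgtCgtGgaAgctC
Acot1 shared 32.7% of its windows with other genes, Acot2 27.7% and Acot3 19.1%, while Acot4 shared 4.74%. Acot4 was 2.42 times Acot2 per kilobase of exon, 7.92 times per coding kilobase and 1.89 times per kilobase of unshared windows. Against Acot1 it was 1.90 times per kilobase of exon and 3.22 times per coding kilobase. Only per kilobase of unshared windows was Acot4 the lower, at 0.810 times, so the order of Acot4 and Acot1 is not settled by these values.

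**Figure D3:**
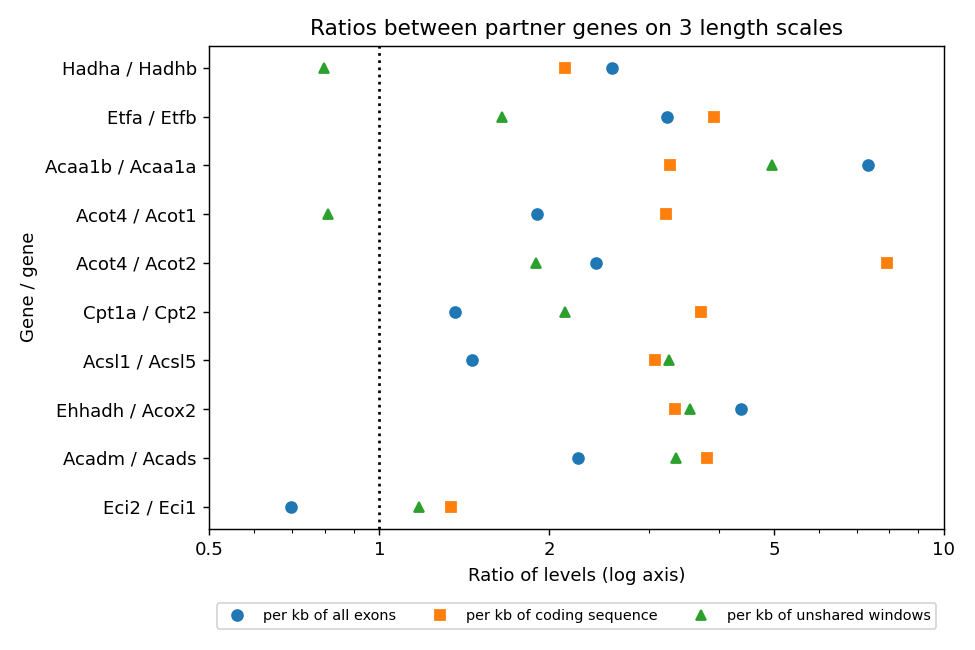
Points give the ratio of levels within 10 pairs of partner genes on a log axis, per kilobase of all exons (circles), of coding sequence (squares) and of windows shared with no other gene (triangles), with a dotted line at equality. Acaa1b over Acaa1a and Ehhadh over Acox2 stay to the right of the line on all 3 scales, whereas Hadha over Hadhb, Acot4 over Acot1 and Eci2 over Eci1 have points on both sides.

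Bdh1 makes the ketone body beta-hydroxybutyrate, and Pdk4 holds back pyruvate oxidation when fat is burnt. Bdh1 had a level of 4161 and a per-kilobase level of 1070. Pdk4 (ENSMUSG00000019577) had the lowest level of the group, 296.2, and the lowest per-kilobase level, 84.4, also above the median of listed genes. The 3 genes nearest to Pdk4 in level were Acot2, Etfb and Cd36. The highest and the lowest gene of the group, Fabp1 and Pdk4, differed 45.7-fold in level and 289.9-fold per kilobase.

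Of the genes of storage, secretion and regulation, Plin2, which coats lipid droplets, had a level of 5218 and a per-kilobase level of 1486. Creb3l3, a membrane-bound transcription factor of the fasting response, had a level of 3776 and a per-kilobase level of 1252. Angptl4, a secreted inhibitor of lipoprotein lipase, had a level of 1600. Vnn1, a pantetheinase that is a known PPAR-alpha target, had a level of 863.5 and a per-kilobase level of 357.4.

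Other genes of the pathway came from a second list of 67 symbols, of which 62 are listed. Their median per-kilobase level was 251.7, and 26 of them were in the highest 10% of listed genes on this scale, with 21 by level without length. The omega-hydroxylases Cyp4a14 and Cyp4a10, which are classic PPAR-alpha targets, had levels of 34095 and 24234 and per-kilobase levels of 13108 and 11491. The transporter and acyl-CoA synthetase Slc27a2 had a level of 20408 and a per-kilobase level of 5436. Among the regulators, Ppara had a per-kilobase level of 1015 and its partner Rxra of 1249, and the coactivator Ppargc1a stood at 63.0. The other PPAR genes were lower on this scale, Pparg at 29.9 and Ppard at 21.7. The hormone gene Fgf21 had a per-kilobase level of 126.

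The tissue label was compared with markers of cell types. All 8 hepatocyte markers were in the highest 10% of listed genes, and Alb was the highest of all, with 10.8% of the summed level. Markers of Kupffer cells, endothelial cells and stellate cells were all listed, with per-kilobase medians of 197.7, 126.3 and 76.8. The Kupffer cell markers Clec4f and Cd5l, at 790.9 and 632.4, were also in the highest 10% of listed genes on this scale. Of the 5 adipocyte markers, 2 are listed, Fabp4 at a level of 71.9 and Plin1 at 21.3, and of the 5 muscle markers 0 are listed. Cd36 and Plin2 are also known from macrophages and endothelium, and the part of those cells in their levels was not tested.

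**Figure D4:**
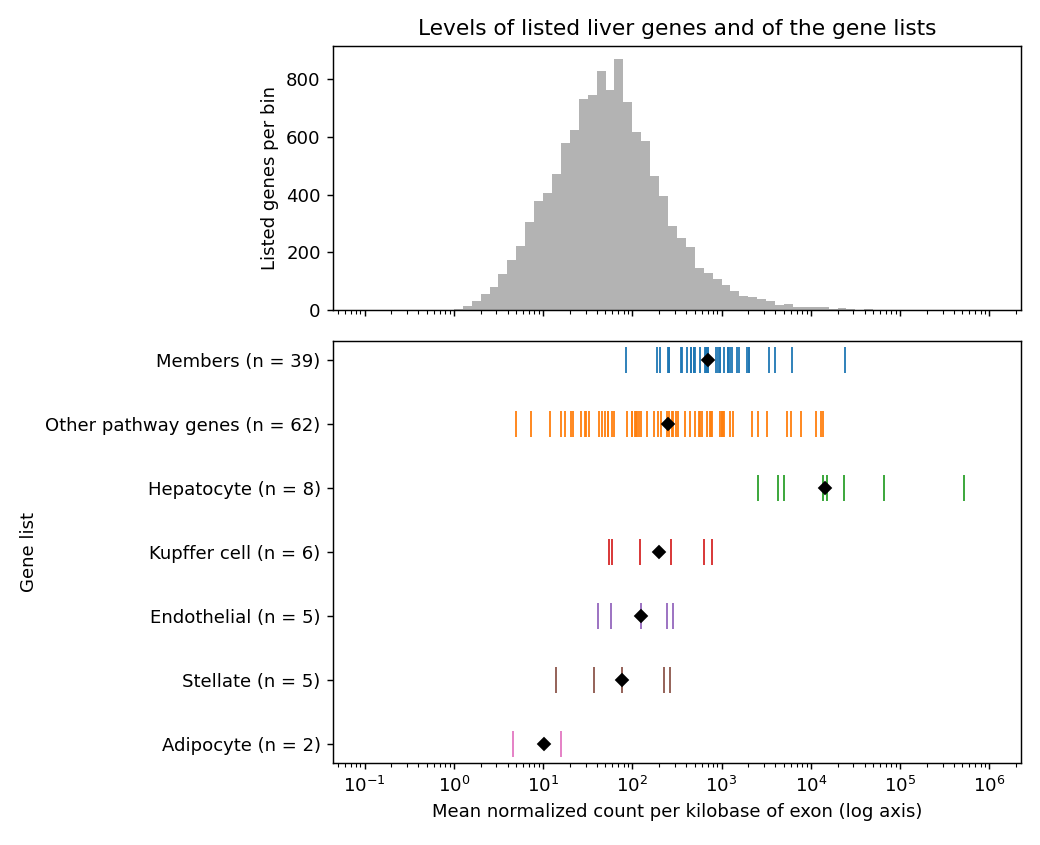
The upper panel is a histogram of the per-kilobase levels of 11754 listed genes on a log axis, and in the lower panel each tick is a gene of a list and each diamond the median of its list. The median of the 39 genes (700.3) lies to the right of the medians of the other pathway genes (251.7) and of the Kupffer, endothelial and stellate markers. It lies to the left of the median of the hepatocyte markers (14439), and the values of single genes overlap between lists.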

How the data were processed

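Liver RNA of 3 Liver Luc ASO and 3 Liver LL35 ASO mice was sequenced with a directional, rRNA-depleted library kit. According to the methods of the paper and the processing notes of the submitters, the authors aligned reads with STAR 2.5.3a with gene counting on an Ensembl annotation and normalized counts by the RLE method of DESeq2. The genome build is not given in the sources used here. The deposited table gives a signal for each gene, the mean of normalized counts over the compared libraries, which was used as the level. Its other 5 numeric columns of the authors' own comparison (log2 fold change, standard error, Wald statistic, p-value and adjusted p-value) hold the paper's findings and were not used, so no test between groups was made. The planned count test needs values per mouse.

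Exon and coding lengths, overlaps, 50-base windows of protein-coding transcripts and coding alignments came from GENCODE release M21 (GRCm38), matched by Ensembl identifier for 11754 of 11779 genes, in Python 3.11.15 with pandas 2.3.3 and Biopython 1.88. Coding bases replaced the planned protein comparison. Promoter windows came from RefSeq. Helper functions were tested on simulated data. The genes and lists were chosen with earlier results of these data known. All members were named, with genes among the 5 highest of the second list, of which some are not reported here, and other genes of that list were named after their values were seen. Depth and precision per library are unknown.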

Additional observations from a re-analysis of the deposited data

How the results depend on the processing

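No paired analysis was possible because the table holds no values per mouse, and for the same reason the planned replicate block and the fits that leave out a replicate were not run, and no error is known. Among listed genes, the median percentile of the 39 genes was 96.2. It became 95.0 per kilobase of exon and 95.6 per kilobase of coding sequence. It was 95.4 among genes with a level of at least 50 and 96.1 among protein-coding genes. With Acot1 to Acot4 counted as 1 gene, and Acaa1a with Acaa1b as another, it was 96.5 over 35 members. Not all of these copies are near-identical, since Acot1 and Acot4 are 75.5% identical. The number of genes in the highest 10% was 32 and lay between 28 and 33 over all settings, with 28 when only genes with a level of at least 50 were kept. The mitochondrial spiral held 25.3% of the summed level of the group, 21.5% per kilobase of exon, 22.4% per kilobase of coding sequence and 27.7% without Fabp1. Per kilobase of exon, its share without Fabp1 was 34.1%; leaving out Fabp1 was added after the levels were seen. The Ensembl identifiers of the 39 members came from the same listed rows, and each carried the same symbol in the annotation.

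Ratios per kilobase of coding sequence or of unshared windows were added after the data were seen. The unshared-window scale leaves out shared windows and also counts only protein-coding transcripts, whereas the exon length covers all annotated transcripts. Its window length was not matched to the length of the reads. Of 21 pairs, the order turned for 6, namely Hadha over Hadhb (0.796, unshared windows), Acot4 over Acot1 (0.810, unshared windows), Acadvl over Acadl (1.10, unshared windows), Acaa2 over Acaa1b (0.987, unshared windows), Eci2 over Eci1 (1.34 per coding kilobase and 1.18 for unshared windows) and Acsl1 over Cpt1a (1.23 and 1.22). The ratio of the peroxisomal to the mitochondrial spiral median, also added later, was 2.11 per kilobase of exon, 1.01 per coding kilobase and 0.975 for unshared windows. For these pairs and medians the order depends on the length used. So does that of Acadm against Acadl and Acadvl, which were not among the 21 pairs. Acadvl, Acadl, Acsl1 and Cpt1a share no window with another gene, so no shared window was removed for their ratios.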
